A study of Mus musculus with 32 samples.

Results

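The comparison described here sets the tibialis muscle of healthy Gne knock-in mice against that of wild-type mice, with 4 libraries on each side and 8 of the 32 libraries of the series in all. Members were taken by their labels: the 4 tibialis libraries of knock-in animals called healthy by the submitters and the 4 tibialis libraries of wild-type animals. All animals were male mice aged up to 3 months, and the knock-in animals carried M743T on both alleles of Gne. The submitters divided knock-in animals into healthy and sick ones. The 3 sick tibialis libraries are not part of the contrast. They enter the model, where they share in the scaling, the filter on low counts and the estimate of the spread. The strain, the signs that made an animal sick and the number of independently derived knock-in lines are not stated by the labels. Wild-type and knock-in animals are not stated to be littermates. A p-value here measures the spread between libraries.

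Gne encodes the bifunctional enzyme that makes N-acetylmannosamine from UDP-N-acetylglucosamine and phosphorylates it, the entry into sialic acid synthesis. Sialic acids then cap the sugar chains of cell-surface and secreted glycoproteins. Recessive variants of the human gene cause GNE myopathy, an adult-onset wasting disease of skeletal muscle in which the tibialis anterior is affected early. The tibialis of the mouse is a fast muscle made mostly of fibres with type IIb, IIx and IIa myosin.

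Total counts of the 8 libraries ran from 12893868 to 25328450. Levels are given as CPM, the counts of a gene scaled to a common library size (1e6 counts) after the trimmed mean of M values (TMM) correction. Fold changes are log2 values from limma-voom, healthy knock-in minus wild type, and a gene was called when its Benjamini-Hochberg adjusted p was under 0.05. Several libraries stood apart before any comparison. All 4 wild-type libraries carried transcripts of the kidney, described below. Wild-type replicate 3 held more slow-fibre transcripts than the other 3, with 58.7 CPM of Myh7, the slow myosin heavy chain, against 0.169 to 2.07, while healthy replicates read 0.205, 16.5, 0.217 and 16.2 CPM. Wild-type replicate 4 held transcripts of several pseudogenes that were near 0 in the other 3 wild-type libraries. Healthy replicate 4 reached 5 CPM and lay at least 10-fold above each other healthy library for 15 genes. Healthy replicates 1 to 3 did so for 5, 1 and 3 genes. Among the 15 were Lcn2 (27.1 CPM against 0.844 to 1.88 in the other healthy libraries) and the metallothionein gene Mt1 (335 CPM against 11.37 to 12.7). Summed liver markers reached 131 CPM in 1 healthy library and 1.55 at the lowest, against 2.49 to 5.004 in wild type. Genes of the mitochondrial genome took 14.3 ± 0.892% of the counts in wild type and 12.5 ± 1.52% in healthy knock-in (SD, n = 4 each).

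Gne was not called. It read 11.3, 10.1, 9.86 and 11.5 CPM in wild-type replicates 1 to 4 and 9.55, 9.73, 11.2 and 10.5 CPM in healthy replicates 1 to 4, and these ranges overlapped. Its log2 fold change was -0.039 ± 0.14 (SE), with a 95% interval of -0.34 to 0.26 and a limma adjusted p of 0.999. The level of Gne gives no check of which libraries carry the knock-in. Gne lies on the minus strand at chr4:44034075-44084177 (GRCm38). The codon the allele changes is shown with its neighbours as the annotation has it in wild-type mice, from the GENCODE vM21 transcript with 753 codons. Codon 743 lies in exon 12 of 12, the last one, within coding sequence, at chr4:44037151-44037153, and is in capitals:
Gne, chr4:44037139-44037165, minus strand: ggcgcagccagcATGgttctggactac
The counts do not show which allele a library carries, and the sequence is the reference one.

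None of the 14 measured genes of sialic acid synthesis, transport and removal was called in either direction, and 1 had an unadjusted p under 0.05. Their median log2 fold change was -0.0058 [-0.040 to 0.054], beside 0.022 over all 14231 genes tested. Brackets after a list's median give its range over the fits that leave out 1 of the 8 libraries. Of the list, 11 of the 14 had a 95% interval inside -1 to 1. Among the enzymes that follow Gne, Nans, which makes the phosphorylated sialic acid, was at 15.7 ± 1.82 CPM in wild type and 16.0 ± 2.45 CPM in healthy knock-in (SD, n = 4 each). Nanp, the phosphatase that acts next, was at 1.23 ± 0.387 and 0.958 ± 0.366 CPM. Cmas, which activates sialic acid with CMP in the nucleus, was at 23.7 ± 3.41 and 23.5 ± 2.63 CPM. The ranges of both groups overlapped for all 3 of these genes.

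Slc35a1, the Golgi carrier of CMP-sialic acid, had a log2 fold change of -0.052 ± 0.17. Slc17a5, the lysosomal sialic acid exporter, had 0.13 ± 0.32. For the sialidases the log2 fold changes were -0.10 for Neu1, 0.049 for Neu2 and -0.12 for Neu3, with 95% intervals of -0.55 to 0.34, -0.89 to 0.98 and -0.69 to 0.45. Nagk and Renbp, which handle N-acetylglucosamine and N-acetylmannosamine, had -0.050 ± 0.19 and -0.059 ± 0.32, and Uap1, which makes UDP-N-acetylglucosamine, had 0.067 ± 0.19. Cmah, which converts the acetyl to the glycolyl form of CMP-sialic acid in mice, had a wide interval of -0.32 to 1.33.

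Npl, the lyase that breaks sialic acid down, had the lowest p of this list. It read 1.06, 1.185, 1.45 and 1.66 CPM in wild type and 2.32, 1.55, 2.24 and 2.48 CPM in healthy knock-in. Only the lowest healthy library lay under the highest wild-type one. Its log2 fold change was 0.68 ± 0.27, with an unadjusted p of 0.0295 and a limma adjusted p of 0.991. Of the sialyltransferases, which attach sialic acid to glycans, 17 of 19 passed the filter on low counts and none was called. St6galnac4 had -0.54 ± 0.19 and St3gal1 had 0.58 ± 0.25, and both had an adjusted p above 0.8.

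Across all genes, 66 of 14231 were called (0.464%), 3 of them higher (0.0211%) and 63 lower (0.443%) in healthy knock-in. At an unadjusted p under 0.05 there were 691 genes (4.86%). The ranges of the 2 groups did not overlap for 192 genes that were higher (1.35%) and 426 that were lower (2.99%) in healthy knock-in. The 63 lower genes fall into 3 sets. The kidney lists hold 33 of them. A further 27 lie outside those lists and were at least 2-fold higher in wild-type tibialis than in wild-type gastrocnemius and in wild-type quadriceps. Together these 60 genes are treated apart. The other called genes were Vcp-rs, Gm13305 and Gm2564, which were lower, and Gprc5c, Gm1840 and Gdap1, which were higher. This division was made after the calls were seen.

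**Figure D1:**
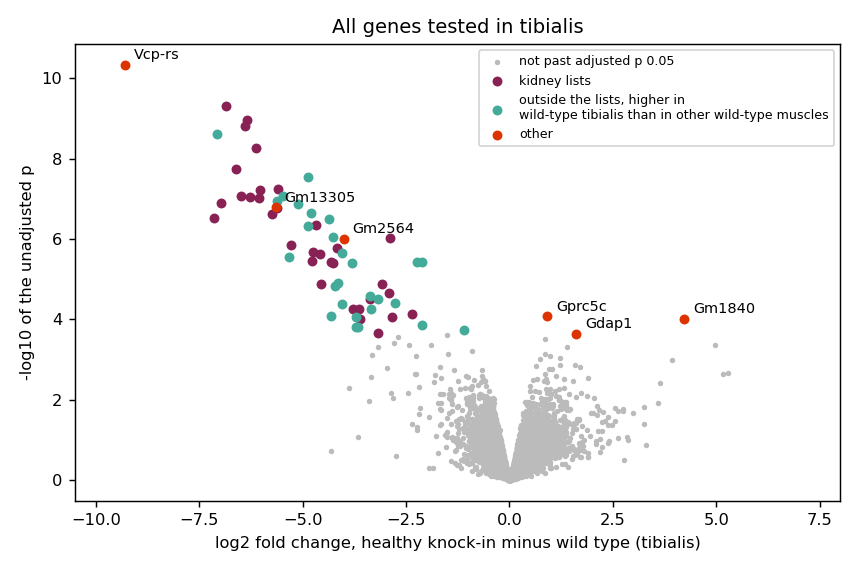
Log2 fold change, healthy knock-in minus wild type (horizontal axis), against -log10 of the unadjusted limma p (vertical axis) for the 14231 genes tested in tibialis, with the 66 called genes coloured by set. Called genes on the left are nearly all kidney genes or genes higher in wild-type tibialis than in the other wild-type muscles, and the 6 others are named.

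Kidney transcripts were higher in all 4 wild-type tibialis libraries than in any of the 28 other libraries. Summed over both kidney lists, the level was 148 to 189 CPM in wild-type tibialis, 29.2 to 45.1 CPM in healthy tibialis and at most 86.7 CPM in the 28 libraries other than wild-type tibialis. As a share of raw counts this was 0.0149 to 0.0173% in wild-type tibialis. Genes of the proximal tubule, the nephron segment that reabsorbs most of the filtrate, summed to 110.0 to 143 CPM in wild type and 3.95 to 7.35 CPM in healthy knock-in. Genes of the loop, distal tubule, collecting duct and podocyte summed to 36.8 to 45.5 CPM in wild type and 24.5 to 41.2 CPM in healthy knock-in. The second sum rests largely on Egf, which read 19.4 to 22.6 CPM in wild type and 22.6 to 37.1 CPM in healthy knock-in.

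Of 73 listed kidney genes, 37 passed the filter and 36 did not. A kidney gene could pass through its reads in wild type alone, so the count of called members is no measure of the list. Kap, a protein of the proximal tubule under androgen control, read 33.6, 43.7, 36.7 and 37.7 CPM in wild type and 0.341, 0.311, 0 and 1.098 CPM in healthy knock-in. Slc34a1, the sodium-phosphate cotransporter of the proximal tubule, read 9.40, 12.4, 11.7 and 8.87 CPM and 0.136, 0.0444, 0 and 0.239 CPM. Each wild-type library lay far above every healthy one for both genes.

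Acsm2, an acyl-CoA synthetase of that segment, read 9.30, 14.3, 12.4 and 10.9 CPM in wild type and 0 to 0.477 CPM in healthy knock-in. Slc27a2, a fatty acid transporter, read 7.55 to 9.48 and 0 to 0.7502 CPM, and Lrp2, the endocytic receptor megalin, read 5.14 to 8.85 and 0 to 0.133 CPM. Umod, which encodes uromodulin of the thick ascending limb, had 238 reads over the wild-type libraries and none over the healthy ones, at least 79.9-fold lower when 3 counts over the group are taken as the floor. For Slc12a1, the target of loop diuretics, and Cdh16, a kidney cadherin, the same bounds were 58.4-fold and 48.3-fold lower. Such bounds cover counting error only. Fxyd2, a subunit of the sodium pump, read 2.30, 3.13, 2.25 and 2.49 CPM in wild type and 0.136, 0.799, 0.434 and 0.620 CPM in healthy knock-in. The 4 tested list members that were not called were Slc6a19, Dnase1, Egf and Sostdc1.

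**Figure D2:**
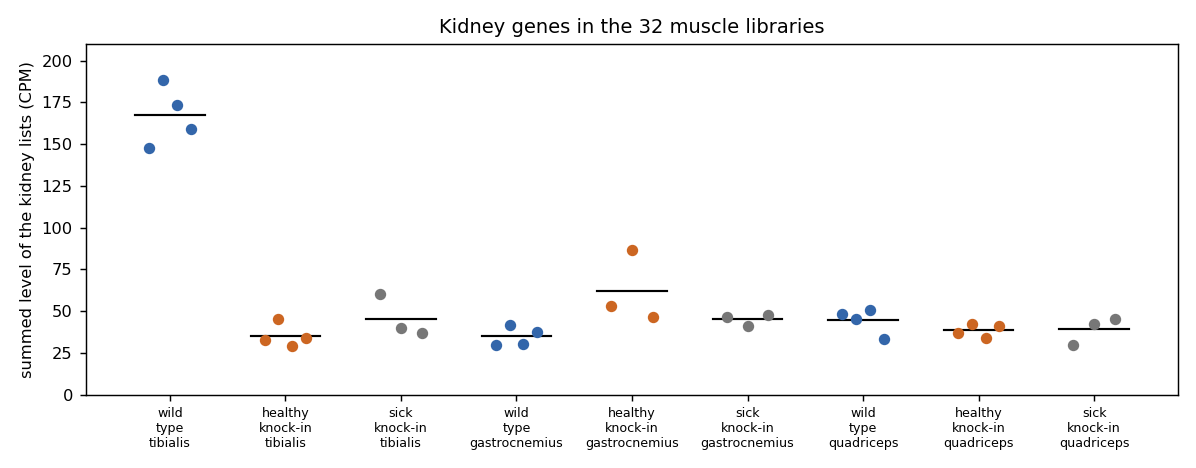
Summed CPM of both kidney lists (vertical axis, from 0) in each of the 32 libraries by state and muscle (horizontal axis), with a bar at the group mean. The 4 wild-type tibialis libraries lie between 148 and 189 CPM, above every other library.

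The set of genes outside the kidney lists that were higher in wild-type tibialis than in both other wild-type muscles held 162 tested genes, of which 27 were called, all of them lower. High wild-type tibialis values chose this set, so its direction is no result, and as for the kidney genes a member could pass the filter through wild type alone. Mep1a, a metalloprotease of brush borders, had 277 reads over the wild-type libraries and none over the healthy ones, at least 93.0-fold lower. Fut9, a fucosyltransferase, was at least 19.8-fold lower by the same floor. Cltrn, which is required for amino acid uptake by the proximal tubule, read 2.58 to 3.48 CPM in wild type and 0 to 0.0954 CPM in healthy knock-in. Ugt2b38 and Pdzk1ip1 read 1.31 to 2.96 and 2.20 to 3.47 CPM in wild type, and at most 0.0954 CPM in any healthy library.

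Some genes of this set kept reads in every healthy library. Acy3, an aminoacylase, read 6.95, 8.21, 9.21 and 6.26 CPM in wild type and 1.5, 1.64, 2.24 and 1.43 CPM in healthy knock-in, a log2 fold change of -2.11 ± 0.27 (adjusted p = 0.00141). Mpv17l read 2.76, 3.64, 2.54 and 2.69 and 0.7502, 0.666, 0.434 and 0.477 CPM, -2.23 ± 0.28 (adjusted p = 0.00141). Cyp4b1, a cytochrome P450, read 16.7, 22.6, 19.1 and 14.4 and 10.2, 7.68, 8.91 and 6.59 CPM, -1.09 ± 0.21 (adjusted p = 0.0401). The groups did not overlap for these 3 genes. Acy3 and Mpv17l stayed under 0.05 in all 16 alternative settings, and Cyp4b1 lost its call in 9 of them.

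Hsd3b2, Spink1 and Slc51a were lower as well, with -2.76, -3.18 and -2.10 on the log2 scale and adjusted p-values of 0.0117, 0.00935 and 0.0332. Each was at most 1.27 CPM in wild type, and Slc51a lost its call in 11 of 16 settings. Whether the reads of these genes in wild type come with the kidney transcripts was not tested. How kidney transcripts came into the wild-type libraries is not stated by the labels and was not tested either. In bulk tissue, fewer cells of a type and less RNA per cell cannot be told apart.

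The gene with the lowest p of all was Vcp-rs, a processed copy of Vcp, the gene of the AAA ATPase p97. Vcp-rs read 53.1, 73.2, 56.8 and 67.2 CPM in wild type and 0.0682, 0.0444, 0.0724 and 0.0954 CPM in healthy knock-in, which is 4421 reads against 5 over the groups. The log2 fold change was -9.30 ± 0.43 with an adjusted p of 6.59e-07. It was also called in the other muscles, at -9.07 in gastrocnemius (adjusted p = 3.12e-05) and -8.57 in quadriceps (adjusted p = 2.73e-05). The sick tibialis libraries held 0.0611 to 0.208 CPM. Vcp itself read 194, 242, 260.3 and 241 CPM in wild type and 218, 211, 244 and 214 CPM in healthy knock-in, with a log2 fold change of -0.042 ± 0.20. The 2 genes are told apart by few bases: the Vcp-rs transcript (chrX:104345829-104348234, 1 exon, minus strand) aligned to a Vcp transcript with 8 mismatches and 15 gap positions over 2421 columns. To show how little separates them, the stretch of 60 coding bases of Vcp exon 13 with the most mismatches to Vcp-rs is given beside the copy, with the differing bases in capitals, from GENCODE vM21 transcripts:
Vcp, chr4:42983517-42983576, minus strand: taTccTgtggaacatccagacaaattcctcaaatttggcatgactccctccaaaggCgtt
Vcp-rs, chrX:104346693-104346752, minus strand: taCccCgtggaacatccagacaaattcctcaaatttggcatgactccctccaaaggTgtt
How reads that match both were counted is not given in the sources used here, so the split of reads between the 2 genes is uncertain, as it is for the other near copies named here.

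Gm13305 and Gm2564 lie on chromosome 4 near Gne and are also near copies of other genes. Vcp, the closest match of Vcp-rs, lies within 10 Mb of Gne too, while Vcp-rs itself is annotated on the X chromosome. Gm13305 (chr4:42158842-42168603) is annotated as protein-coding and matched Il11ra1, a receptor chain for interleukin 11, at 98.9% identity over 1953 columns. It read 3.68, 3.38, 5.95 and 4.52 CPM in wild type and 0, 0.0444, 0.145 and 0.0954 CPM in healthy knock-in, with 311 reads against 5. Its log2 fold change was -5.65 ± 0.53 (adjusted p = 0.000128). Il11ra1 itself had 0.26 ± 0.18. Gm2564 (chr4:42629719-42631714) matched Ccl19, a chemokine of lymphoid tissue, at 98.9% identity over 707 columns.

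Gm2564 read 2.99, 2.03, 5.22 and 4.02 CPM in wild type and 0.205, 0.178, 0.217 and 0.143 CPM in healthy knock-in, -4.01 ± 0.45 on the log2 scale (adjusted p = 0.000503). Ccl19 read 0.783, 0.338, 0.798 and 1.202 and 0.0682, 0.0444, 0 and 0.191 CPM, -3.18 ± 0.68, with an adjusted p of 0.0936. In both pairs the wild-type libraries all lay above the healthy ones for the copy, and Vcp-rs, Gm13305 and Gm2564 stayed under 0.05 in all 16 alternative settings. The difference from the change in gastrocnemius and quadriceps was not past 0.05 for any of the 3 genes.

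Gm1840 had the highest fold change among the called genes, and 1 wild-type library stood apart from the other 3. It is a processed pseudogene (chr8:5639580-5641011) that matched Gpi1, the glycolytic enzyme glucose-6-phosphate isomerase, at 98.7% identity over 1046 columns. It read 0.599, 0.423, 0.725 and 14.4 CPM in wild type and 24.3, 28.6, 29.8 and 33.7 CPM in healthy knock-in. Wild-type replicate 4 lay between the other 3 wild-type libraries and the healthy ones. The log2 fold change was 4.22 ± 0.74 (adjusted p = 0.0231) with that library and 5.61 (adjusted p = 0.000157) without it, and the call was lost in 9 of the 16 alternative settings. Gpi1 had -0.015 ± 0.14. The stretch of 60 coding bases in Gpi1 exon 7 that differs most from Gm1840 is shown with the copy, differing bases in capitals, from the same transcripts:
Gpi1, chr7:34219040-34219099, minus strand: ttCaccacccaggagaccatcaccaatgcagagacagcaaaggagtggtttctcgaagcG
Gm1840, chr8:5639971-5640030, plus strand: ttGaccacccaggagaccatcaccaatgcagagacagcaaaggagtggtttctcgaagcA

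Wild-type replicate 4 stood apart in all 3 muscles. With genes taken where 1 wild-type library reached 5 CPM and was at least 10-fold above each of the other 3, replicate 4 of tibialis, gastrocnemius and quadriceps shared 5 genes: Ftl1-ps1, Gm13365, Gm1840, Gm5452 and Gm6394. By the reverse rule, at least 10-fold below each of the other 3, every other wild-type number also shared genes across the 3 muscles: Rps3a3 for number 1, Gm13394 and Gm47854 for number 2, and Gm8730 and Gm9625 for number 3. The labels do not tie libraries to animals, so whether muscles of 1 number share an animal was not tested. Gm13365 read 0, 0, 0.0725 and 22.6 CPM in wild-type tibialis and 10.3, 9.55, 12.2 and 11.2 CPM in healthy tibialis. Gm5452 read 0.0921, 0.169, 0.145 and 77.7 and 33.6, 30.9, 40.6 and 38.2 CPM, and Gm6394 read 0.0921, 0.169, 0.218 and 17.7 and 8.87, 7.33, 7.24 and 10.9 CPM. All healthy libraries had reads of these genes while wild-type replicates 1 to 3 had almost none. In wild-type replicate 4 the level was 2.09, 2.17 and 2.06 times the healthy mean for Gm13365, Gm5452 and Gm6394, 2.03 times for Ftl1-ps1 and 0.494 times for Gm1840.

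Several of these genes are near copies too. Gm13365 and Gm5452 matched Ldha, the lactate dehydrogenase of fast muscle, at 89.1 and 95.9% identity and Ftl1-ps1 matched the ferritin light chain gene Ftl1 at 99.6%. Without wild-type replicate 4, Gm13365, Gm5452 and Gm6394 were called, with log2 fold changes of 7.86, 7.85 and 5.64. These genes were picked because replicate 4 lay far above the other wild-type libraries. Leaving it out keeps wild-type values that were chosen to be low, so these calls are largely set by that choice. The kallikrein gene Klk1b16 had no reads in wild-type replicates 1 to 3, 1.78 CPM in replicate 4 and 1.84 to 4.34 CPM in healthy knock-in. It was called without that replicate (adjusted p = 0.00386), and not in the fit with all libraries (adjusted p = 0.0851). Without wild-type replicate 4 the count of called genes was 61, of which 12 lay outside both sets treated apart, against 66 and 6 with it. Gm1840, Gm13365, Gm5452 and Gm6394, picked in this way, are among the 12. A cause of this pattern was not tested.

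**Figure D3:**
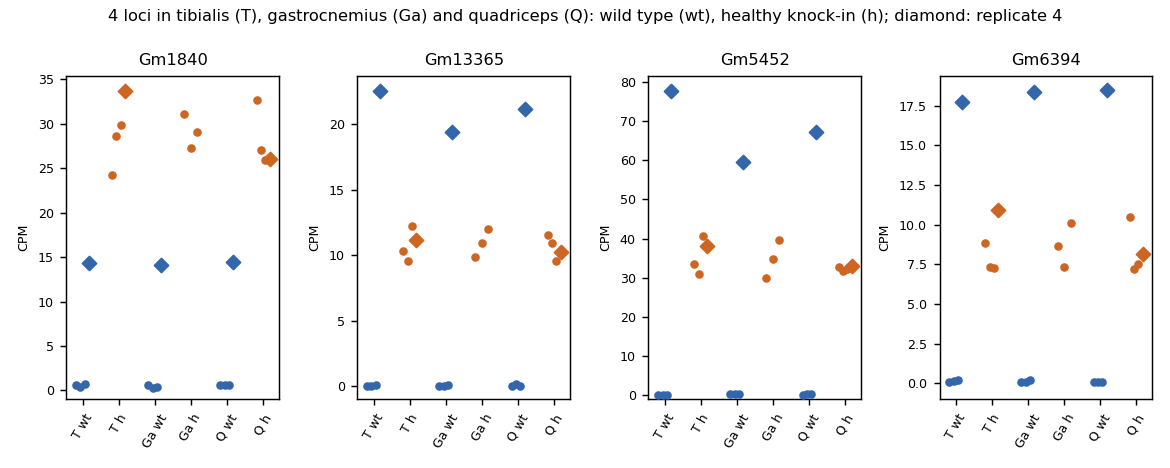
CPM (vertical axes) of 4 pseudogenes in wild-type (blue) and healthy knock-in (orange) libraries of tibialis, gastrocnemius and quadriceps, with replicate 4 as a diamond. Wild-type replicate 4 lies above 14 CPM in all 3 muscles and all 4 genes, while wild-type replicates 1 to 3 lie near 0.

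Gprc5c and Gdap1 were the other called genes that were higher. Gprc5c, an orphan receptor of the class C family, read 41.6, 37.9, 37.6 and 43.5 CPM in wild type and 61.6, 83.5, 94.2 and 60.6 CPM in healthy knock-in. Every healthy library lay above every wild-type one, and the log2 fold change was 0.91 ± 0.16 (adjusted p = 0.0213). Gdap1, a protein of the outer mitochondrial membrane whose human variants cause Charcot-Marie-Tooth neuropathy, read 4.70, 7.36, 5.95 and 7.13 and 19.7, 13.8, 21.3 and 20.7 CPM. It was higher in all 4 healthy libraries, by 1.62 ± 0.31 (adjusted p = 0.0494). Gprc5c lost its call in 7 of 16 alternative settings and Gdap1 in 13 of 16, with adjusted p-values up to 0.109 and 0.282. Direction was kept in all 16 settings for both.

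**Figure D4:**
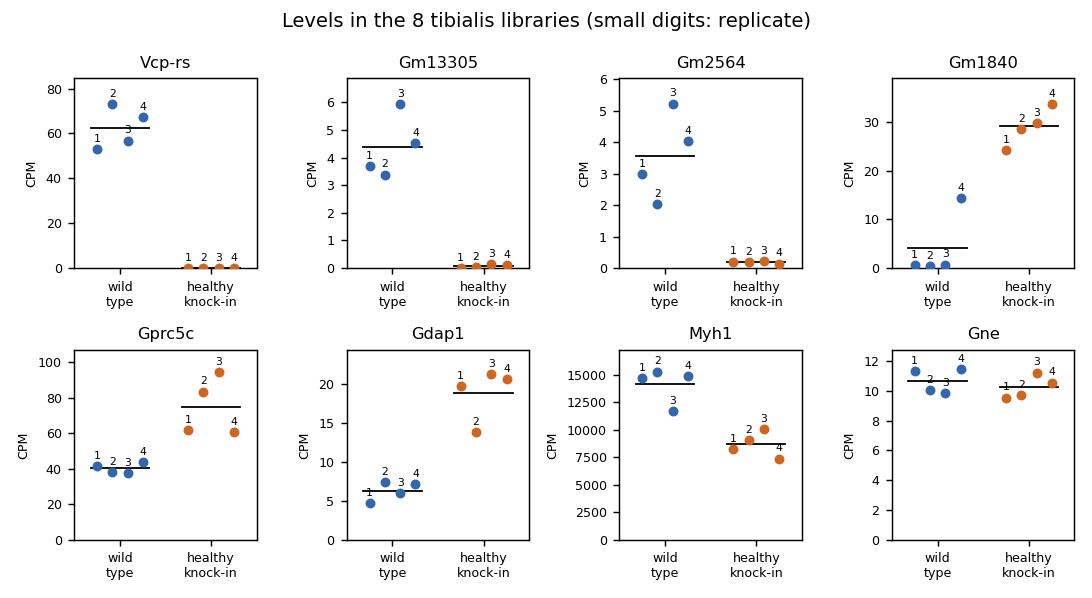
CPM (vertical axes, each from 0) of 8 genes in the 4 wild-type (blue) and 4 healthy knock-in (orange) tibialis libraries, with the replicate number beside each point and a bar at the group mean. Vcp-rs, Gm13305 and Gm2564 lie near 0 in all 4 healthy libraries, Gm1840 is near 0 in wild-type replicates 1 to 3 but not in 4, and the Gne ranges overlap.

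Below the threshold, the protein-coding genes with the lowest unadjusted p and at least 5 CPM in 1 group are given as values. On the higher side, Dhdh, a dihydrodiol dehydrogenase, read 16.7, 19.3, 16.3 and 16.9 CPM in wild type and 29.7, 24.2, 39.3 and 30.3 CPM in healthy knock-in, 0.85 ± 0.17 (adjusted p = 0.0636). Ces1d, a carboxylesterase, had 1.396 ± 0.30 (adjusted p = 0.0945), and the growth factor gene Fgf2 had 0.99 ± 0.22. Sort1, which encodes the sorting receptor sortilin, read 50.5, 74.6, 47.1 and 61.4 and 89.8, 102, 77.8 and 105 CPM. Ripor2, Neto2, Sema3c and Acsl3 had 1.23, 1.59, 0.63 and 0.97, none with an adjusted p under 0.15.

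On the lower side, Myh8, the perinatal myosin heavy chain, read 70.0, 65.3, 94.6 and 73.4 CPM in wild type and 29.0, 43.3, 51.5 and 36.9 CPM in healthy knock-in, with -0.90 ± 0.20 (adjusted p = 0.118). Myh1, the type IIx myosin heavy chain, read 14734, 15289.6, 11731 and 14876 and 8235, 9051, 10049.8 and 7381 CPM, -0.67 ± 0.17 (adjusted p = 0.273). For both the 4 healthy libraries lay below the 4 wild-type ones, and neither passed the threshold. Ces1f, Gimap4, Dcakd and Ppif, the mitochondrial cyclophilin, had -2.69, -0.67, -1.04 and -0.64. Of the genes in this paragraph, Myh8, Myh1, Ces1f, Dcakd and Ppif also belong to the set that was at least 2-fold higher in wild-type tibialis than in both other wild-type muscles, and Gimap4 does not.

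The neighbourhood of Gne on chromosome 4 was examined after its genes were seen among the calls. Within 10 Mb on either side of Gne, and without the kidney lists and the genes higher in wild-type tibialis, 124 genes were tested and 2 were called, Gm13305 and Gm2564. There, 16 of the 124 (12.9%) had an unadjusted p under 0.05, against 574 of 13908 elsewhere (4.13%) and 4.86% of all genes tested. Of those 16 genes, 8 had positive and 8 negative values. These are descriptions, with no test of the window.

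Galt, which encodes the galactose enzyme galactose-1-phosphate uridylyltransferase, read 13.8, 11.5, 18.1 and 9.37 CPM in wild type and 23.5, 24.2, 19.6 and 22.1 CPM in healthy knock-in, 0.85 ± 0.19 (adjusted p = 0.133). Its change in quadriceps was 0.95. Hint2, a mitochondrial hydrolase, had 0.749 ± 0.26 in tibialis (adjusted p = 0.807) and 1.53 in quadriceps, where it was called (adjusted p = 0.0439). It was not called in gastrocnemius. Tesk1, a kinase of actin regulation, had 0.64, Reck, an inhibitor of matrix metalloproteases, had 0.54, and Chmp5, a part of the ESCRT machinery, had -0.44, none of them called.

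The remaining gene lists cover fibre types, metabolism, stress responses and cell types. Of 690 tested genes in the 42 lists other than the kidney ones, limma-voom called none, and 61 (8.84%) had an unadjusted p under 0.05, beside 0.464% called and 4.86% at that p over all genes. Limma-trend called none as well, and the settings that called any are given in the closing section. That share was 4.03% without wild-type replicate 3, beside 3.43% of all genes in the same fit, and 16.6% without wild-type replicate 4, beside 6.87% of all genes. Each list is described by its median beside the all-gene median of 0.022. Of 41 such lists with a median, 25 changed its sign in at least 1 fit that left out a library.

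Among these lists, oxidative phosphorylation and fatty acid oxidation had the lowest medians. All 40 nuclear genes of oxidative phosphorylation had negative values, with a median of -0.40 [-0.51 to -0.24], 15 at an unadjusted p under 0.05 and 34 with an interval inside -1 to 1. Cox7b, a subunit of cytochrome c oxidase, read 876, 423, 1321 and 674 CPM in wild type and 669.9, 333, 268 and 291 CPM in healthy knock-in, and Cox5b read 343, 341, 517 and 264 and 266, 255, 216 and 234 CPM. The groups overlapped for both genes, and wild-type replicate 3 was the highest library. All 31 genes of fatty acid oxidation had negative values too, with a median of -0.39 [-0.56 to -0.27] and 6 at an unadjusted p under 0.05. Ppargc1a, a coactivator of mitochondrial genes, read 65.3, 53.9, 54.6 and 74.0 and 35.7, 37.7, 42.3 and 45.0 CPM, without overlap, -0.58 ± 0.16 (adjusted p = 0.421). Etfdh, which feeds electrons from fat oxidation into the respiratory chain, had -0.47 ± 0.16.

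The 12 tested genes of the mitochondrial genome had a median of -0.28 [-0.39 to -0.25], and none was positive. mt-Co3 and mt-Atp6 had -0.56 and -0.41. Their reads are uncertain where nuclear copies of mitochondrial sequence exist. Without wild-type replicate 3, the library with the most slow-fibre transcripts, the median of oxidative phosphorylation was -0.24 and that of fatty acid oxidation -0.27. The slow-fibre list, led by myoglobin (Mb, -0.95 ± 0.28) and Csrp3 (-1.94 ± 0.77), had a median of -0.37 [-0.995 to 0.062]. It was 0.062 without wild-type replicate 3 and 0.020 without healthy replicate 3, but -0.995, -0.72 and -0.83 without wild-type replicate 2, wild-type replicate 4 and healthy replicate 4. The summed slow-fibre level was 3895 to 8323 CPM in wild type and 2242 to 2707 CPM in healthy knock-in, without overlap. The part of fibre makeup in the metabolic values was not tested.

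Among fast-fibre genes the median was 0.091 [-0.042 to 0.22]. Myh2, the type IIa myosin heavy chain, read 2297, 1074, 2337 and 2034 CPM in wild type and 321, 803, 818 and 938 CPM in healthy knock-in, -1.44 ± 0.43 (adjusted p = 0.569). Actn2, a Z-disc actinin, read 2232, 2033, 2540.2 and 2493 and 994, 1351, 1471 and 1201 CPM, -0.87 ± 0.24 (adjusted p = 0.414). Both had no overlap between groups. Of 18 genes of excitation-contraction coupling 14 had positive values, with a median of 0.25 [0.19 to 0.30]. Atp2a1, the calcium pump of fast fibres, read 19910.3, 22710.4, 19024 and 20779.5 and 24355, 26024, 27171 and 27864 CPM and had 0.39 ± 0.16, and the sodium channel gene Scn4a had 0.46 ± 0.19. Sarcomere and Z-disc genes as a list had a median of 0.010 [-0.15 to 0.054].

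Sterol and fatty acid synthesis had a median of 0.32 [0.23 to 0.40], with 22 of 25 values positive and 7 at an unadjusted p under 0.05. Cyp51, the sterol demethylase, read 6.86, 5.16, 5.44 and 5.10 CPM in wild type and 6.82, 9.24, 8.76 and 10.2 CPM in healthy knock-in. Scd2, a fatty acid desaturase, read 41.8, 32.2, 42.1 and 47.2 and 38.0, 94.8, 96.7 and 108 CPM, 0.98 ± 0.29 (adjusted p = 0.579). Healthy replicate 1 lay within the wild-type range for both genes, and the other 3 healthy libraries lay above it. Glycolysis had a median of -0.022 [-0.13 to 0.047], and Gbe1, the glycogen branching enzyme, had -0.60 ± 0.27 while Ugp2 had -0.49 ± 0.22.

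Lists tied to muscle disease had medians near that of all genes. The dystrophin complex and dystroglycan glycosylation list had -0.0025 [-0.0035 to 0.083], with 22 of 24 intervals inside -1 to 1. B3galnt2, which extends the sugar chain of dystroglycan, read 58.2, 56.7, 49.7 and 60.7 CPM in wild type and 93.7, 87.4, 75.7 and 72.5 CPM in healthy knock-in, and Dag1, dystroglycan itself, had 0.26 ± 0.17. B3galnt2 did not overlap between groups and had an adjusted p of 0.419. Atrophy and proteolysis genes had a median of 0.058 [-0.030 to 0.15]. Mstn, which encodes myostatin, read 20.2, 36.1, 28.8 and 40.2 and 46.7, 40.7, 59.96 and 56.5 CPM, 0.77 ± 0.25 (adjusted p = 0.730). Lysosome and autophagy had -0.028 [-0.042 to 0.073], with Wipi1 at -0.34 and Gaa, the lysosomal glycogen enzyme, at 0.41.

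Embryonic and regenerating fibre genes had a median of -0.15 [-0.49 to -0.018], and H19 had -0.99 ± 0.47 with an interval of -2.01 to 0.024. Satellite cell genes had -0.076 [-0.25 to -0.037], with Pax7 at -0.64 and Megf10 at -0.56. Neuromuscular junction genes had -0.13 [-0.33 to 0.11], with Prkar1a at -0.34 and Agrn at -0.23. Extracellular matrix had 0.12 [-0.18 to 0.44] and tendon 0.38 [0.072 to 0.90]. The matrix median was -0.18 without wild-type replicate 3 and 0.44 without healthy replicate 1, and the tendon median was 0.072 without healthy replicate 3 and 0.90 without healthy replicate 1. Fmod, a collagen-binding proteoglycan, read 82.5, 65.0, 65.8 and 321 and 113, 162, 496 and 412 CPM, Lox had 1.14 and the cartilage protein gene Cilp 0.81. Wild-type replicate 4 was the highest wild-type library for Fmod and lay within the healthy range.

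Stress lists gave no call either. The integrated stress response had a median of 0.011 [-0.081 to 0.26] (Ddit3 -0.64, Vldlr 0.48), endoplasmic reticulum chaperones 0.040 [-0.13 to 0.20] (Xbp1 0.23, Dnajc3 0.18) and p53 targets 0.037 [-0.058 to 0.094] (Phlda3 -0.85, Plk2 -0.59). In cytosolic heat shock, with a median of 0.00036 [-0.16 to 0.12], Bag3, the co-chaperone of Z-disc turnover, read 185, 171, 203 and 203 and 130.2, 129, 145 and 156 CPM, -0.41 ± 0.15, and Hspb6 had -0.60. Immediate early genes had 0.55 [0.31 to 0.80], with 22 of 24 values positive, Fos at 0.97 and Jun at 0.40, and 0.31 without healthy replicate 4. The glucocorticoid response had 0.21 [-0.034 to 0.47] (Pdk4 -0.79, Nfkbia 0.32). The growth hormone axis had 0.15 [-0.070 to 0.32] (Igf1 0.68, Socs2 0.58). The glucocorticoid median was -0.034 without healthy replicate 4 and 0.47 without wild-type replicate 4, and the growth hormone median was -0.070 without wild-type replicate 3 and 0.32 without wild-type replicate 4. Circadian genes had 0.021 [-0.17 to 0.071] (Ciart -1.14, Per3 -0.66). Interferon response genes had 0.058 [-0.043 to 0.23] (Irf7 0.70, Ifit1 0.61), cell cycle genes -0.013 [-0.15 to 0.22] (Cenpa -0.47, Ccnb2 -0.69) and ribosomal proteins -0.061 [-0.19 to 0.10] (Rps2 -0.28, Rplp0 -0.35).

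Markers of other cell types were read as summed levels and medians. Macrophage markers had a median of 0.64 [0.23 to 0.94] and summed to 211 to 456 CPM in wild type and 216 to 607 CPM in healthy knock-in, and without healthy replicate 4 the median was 0.23. Mrc1, the mannose receptor of resident macrophages, read 18.6, 12.2, 7.25 and 22.5 and 16.1, 33.4, 19.2 and 66.2 CPM, and Fcgr3 had 1.08. Endothelial markers had a median of -0.33 [-0.44 to -0.25] with 15 of 16 values negative, and Tie1 and Gpihbp1, both of vessel walls, had -0.54 ± 0.19 and -0.44 ± 0.18. The summed endothelial level was 953 to 1265 CPM in wild type and 864 to 993 CPM in healthy knock-in, so the groups overlapped.

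Smooth muscle and pericyte markers had -0.15 [-0.25 to -0.10] (Kcnj8 -0.61, Abcc9 0.31) and Schwann cell markers -0.27 [-0.74 to -0.0089] (Egr2 0.55). Fibro-adipogenic progenitor markers had 0.30 [-0.016 to 0.40] (Dpp4 0.74, Clec3b 0.46), with 8 of 14 values positive and a median of -0.016 without healthy replicate 4. Adipocyte markers had 0.12 [0.063 to 0.30] (Fabp4 -0.37, Retn 1.94) and erythrocyte markers 0.068 [-0.12 to 0.37] (Alas2 0.38, Bpgm 0.23). Few markers of neutrophils (3 of 9; S100a8 0.47, Mmp9 -0.22), liver (4 of 20; Ttr -3.34, Serpina3k 2.87), keratinocytes (3 of 11; Krt10 0.33, Trp63 0.52) and bone and cartilage (6 of 11; Col9a1 1.61, Dmp1 -0.85) and no lymphocyte marker passed the filter.

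**Figure D5:**
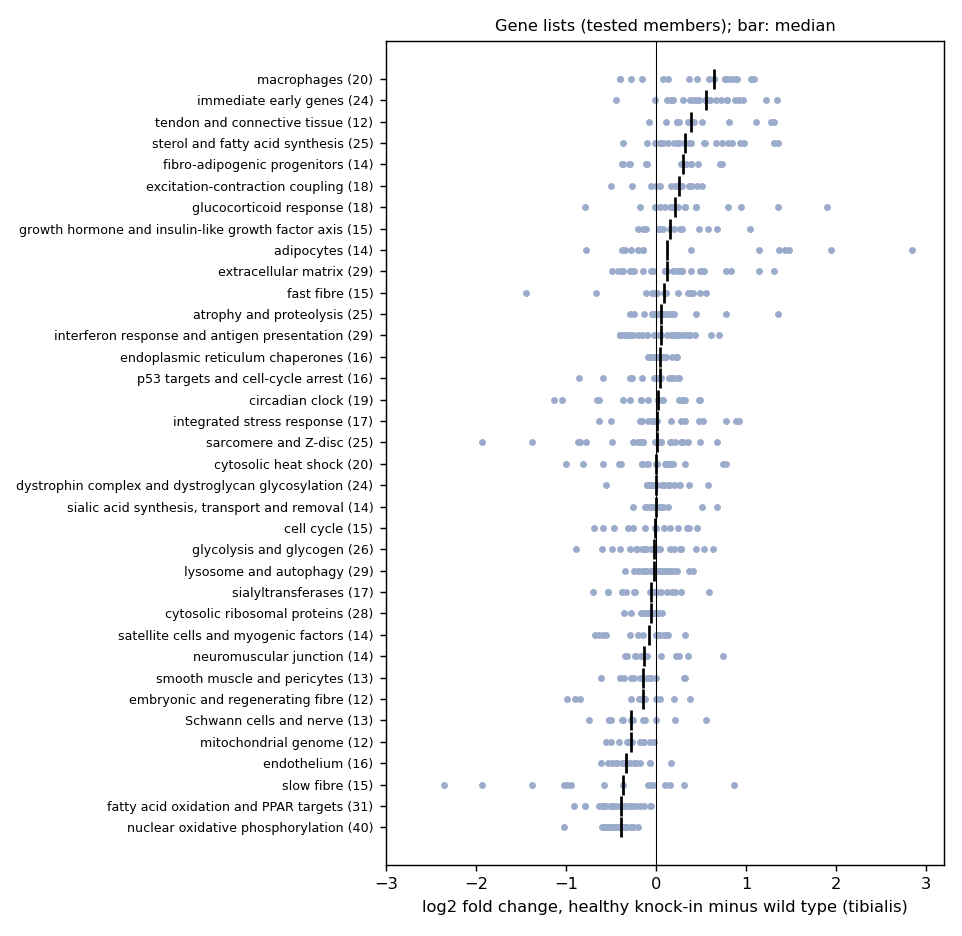
Log2 fold change, healthy knock-in minus wild type in tibialis (horizontal axis), of each tested member (points) and the median (bar) of 36 gene lists with at least 10 tested members (vertical axis, number tested in parentheses), the kidney lists left out. Medians run from -0.40 for oxidative phosphorylation to 0.64 for macrophages, and no point is a called gene.

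The same contrast was read in the other muscles of the series. In gastrocnemius, 1 of 14103 genes was called (0.00709%), which was Vcp-rs. In quadriceps, 4 of 13699 were called (0.0292%): Vcp-rs, Gm13305, Gm1840 and Hint2. The difference between tibialis and gastrocnemius was past 0.05 for 39 of 15195 genes (0.257%), of which 23 were in the kidney lists and 16 were higher in wild-type tibialis. The difference between tibialis and quadriceps was past 0.05 for 31 of 15195 genes (0.204%), of which 19 and 12 were in these sets. The second set was chosen by wild-type tibialis values that also enter these differences, so that no called gene lay outside the sets is largely fixed by that choice. Over all genes, 345 and 472 had an unadjusted p under 0.05. These tests, and the values in 3 muscles below, treat libraries of different muscles as independent. With the number within each state as a block, a fit added after seeing the data, the differences were past 0.05 for 41 and 35 genes, of which 37 and 27 were also past it without the block. In that fit 2 genes outside the sets passed for quadriceps, Slc25a22 and Cxcl9, named after their values were seen.

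For the 6 called genes outside those sets, the change in the other muscles was given by the same model. Gprc5c had 1.02 in gastrocnemius and 0.40 in quadriceps, and Gdap1 had 0.91 and 0.50. Gm1840 had 5.15 and 4.88, Gm13305 -5.73 and -5.06, and Gm2564 -3.52 and -3.90. Of the set treated apart, Acy3 had -0.16 and -0.22, and Cyp4b1 0.27 and -0.088. The difference of Acy3 between muscles was -1.98 ± 0.48 against gastrocnemius and -1.92 ± 0.46 against quadriceps, with adjusted p-values of 0.104 and 0.0986.

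Of 13445 genes tested in all 3 muscles, 12 had an unadjusted p under 0.01 and the same direction in each, 6 higher and 6 lower, a rule applied after the values were seen. Besides the genes described, these were Vmn2r97, Klk1b3, Akap2 and Ankrd6. Vmn2r97, a vomeronasal receptor gene, read 3.64, 2.28, 3.19 and 2.94 CPM in wild-type tibialis and 1.5, 1.38, 0.652 and 0.763 CPM in healthy tibialis, -1.51 ± 0.30 (adjusted p = 0.0530). Akap2, an anchor of protein kinase A, and Ankrd6 are both on chromosome 4 (chr4:57717657-57896984 and chr4:32804035-32950841) and had -1.35 ± 0.34 and -1.01 ± 0.27. They lie outside the window of 10 Mb around Gne, on opposite sides of it. Klk1b3, next to other kallikrein genes of near-identical sequence, had 3.92 ± 0.92.

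How closely the data bound a change depends on depth and level. For 10153 of 14231 genes (71.3%) the 95% interval of the log2 fold change lay inside -1 to 1, which is less than a 2-fold change in either direction. Among the 9451 genes with a mean of at least 5 CPM this held for 87.3%, and among the 4780 below it for 39.8%. The fold changes from percentile 5 to percentile 95 ran from -0.40 to 0.42 in the first of these sets. Gne, Nans, Cmas, Slc35a1 and Neu1 lie inside the bound and Cmah and Npl do not.

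The authors' deposited table gives its own test of healthy knock-in against wild-type tibialis. There, 38 genes of the authors' deposited table had an adjusted p under 0.05, 2 higher and 36 lower. Of these 38 genes of the authors' deposited table, 32 were also called here, all in the same direction, which is 84.2% of the authors' list and 48.5% of the 66. Of the 38 in the authors' deposited table, 18 were in the kidney lists and 12 were in the set higher in wild-type tibialis. The other 8 in the authors' deposited table were Vcp-rs, Gm13305, Gm2564, Vmn2r97, Gm12407, Gprc5c, Ccl19 and Lor. The authors' deposited table gives 0.91 for Gprc5c, -1.49 for Vmn2r97 and -9.81 for Vcp-rs. Gm12407 and Lor did not pass the filter on low counts here.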

How the data were processed

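Total RNA of 32 muscle libraries was sequenced by the submitters, and the 8 tibialis libraries of wild-type and healthy knock-in mice are compared here. Per the submitters' processing notes, the authors used cutadapt 1.18, TopHat2 2.1.1, HTSeq 0.6.0, DESeq2 1.22.1 and the build GRCm38. Their settings, the strand option and the annotation release are not stated. The deposited table holds the authors' raw counts per gene, the same counts scaled by 1 factor per library as a scaled count signal, and the authors' log2 fold changes with p-values and adjusted p-values. Of 54838 genes, 6252 have no value in the raw columns, so those columns were not classed as counts. limma-voom was the main test, and the count models planned as alternatives were not run.

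The raw values were fitted with limma 3.58.1 under R 4.3.3. Genes entered the test if their sum was at least 15 and if n libraries, n being the size of the smallest group, had a CPM at or above that of 10 counts at the median library total. TMM trims were 0.3 and 0.05, and 0.5 was added before the logarithm. Moderation was robust. The 11 tibialis libraries share 1 fit, and all 32 gave the differences between muscles. Printed CPM use TMM totals over all 32 libraries. The fit was tested on simulated data. Coordinates and sequences are from GENCODE vM21 (GRCm38), and near copies were found with blastn 2.17.0 as the protein-coding transcript of another gene with the highest score. Symbols are those of the table.

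The 44 gene lists, the classes and the comparison were chosen with earlier results of these data known. Named genes were Gne and its pathway list, up to 12 called genes in each direction outside the kidney lists, filled by lowest p among protein-coding genes with 5 CPM in a group, the 2 members of lowest p of each list and the 5 most abundant of each kidney list. Genes of the 3-muscle rule, the Gne neighbourhood, near copies and the sets treated apart were named after their values were seen. Replicates differed beyond counting noise in all 12 pairs within a group (chi-square per gene 22.0 to 86.6). Same-numbered libraries of both groups did not in general deviate together: r ran from -0.14 to 0.33, above 0.1 for 1 of 4 numbers. That was number 4, with the highest r of any pair, and pairs of unlike number reached 0.24. Some genes that these rules name are not reported here. Alternatives were other scalings, filters, weights and libraries, with the effects given in the closing section.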

Additional observations from a re-analysis of the deposited data

Results flagged for a closer look

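Among the named genes, 1 library lay far from the other 3 of its group in 32 of 292 groups examined. The rule was the gap to the nearest library as a share of the range. By chance it flags about 1 in 20 unselected, independent groups. These groups share the same libraries, and some of the genes were named after their values were seen. A group in which only 1 library has reads is always flagged. The count of 32 therefore cannot be set against that rate, and an excess over chance was not tested. Values are CPM, with the range of the other 3 libraries after "against".

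In wild-type replicate 2 this held for Ugt2b38 (2.96 against 1.31 to 1.53). In wild-type replicate 3 this was seen for Myh1 (11731 against 14734 to 15289.6), Akap2 (6.67 against 2.96 to 3.55), Scn4a (284 against 450.2 to 470.5), Retn (2.54 against 0.230 to 0.580), Rps2 (213 against 109.8 to 124), Nagk (8.70 against 5.33 to 5.67) and Cmas (28.8 against 21.8 to 22.1). In wild-type replicate 4 this was seen for Gm1840 (14.4 against 0.423 to 0.725), Klk1b16 (1.78 against 0), Klk1b3 (0.207 against 0), Gm13365 (22.6 against 0 to 0.0725), Gm5452 (77.7 against 0.0921 to 0.169), Gm6394 (17.7 against 0.0921 to 0.218), St6galnac4 (35.3 against 32.1 to 32.7), Fmod (321 against 65.0 to 82.5) and Hnrnpa3 (97.9 against 78.9 to 82.2).

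In healthy replicate 1 this was seen for Ttr (1.23 against 0), Cox7b (669.9 against 268 to 333) and Socs2 (9.82 against 20.2 to 21.7). In healthy replicate 2 this was seen for Ugt2b38 (0.0444 against 0), H19 (1942 against 437 to 507), Egf (37.1 against 22.6 to 23.0) and Cmah (7.73 against 3.48 to 3.72). In healthy replicate 3 this was seen for Col9a1 (6.52 against 2.32 to 3.01) and Csrp3 (247 against 26.9 to 59.7). In healthy replicate 4 this was seen for Acsm2 (0.477 against 0 to 0.0724), Fos (11.3 against 4.71 to 5.68), Cenpa (1.67 against 2.39 to 2.40), Ccl21a (5.20 against 0.869 to 1.43), Mt2 (104 against 1.98 to 2.66) and Uap1 (66.1 against 42.1 to 43.7).

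The change in tibialis differed from that in another muscle, by the limma test of the difference with an adjusted p under 0.05, for kidney genes and genes higher in wild-type tibialis. High wild-type tibialis values chose the second of these sets, and a kidney gene could pass the filter through wild-type tibialis alone. The same values enter the differences, so their direction is no result about the knock-in. The difference in log2 fold change, tibialis minus gastrocnemius, was -8.22 for Umod, -8.13 for Slc17a3, -7.67 for Slc12a1, -8.57 for Mep1a, -6.72 for Cdh16, -8.49 for Slc34a1, -5.85 for Fut9, -7.73 for Ugt2b38, -7.40 for Lrp2, -7.39 for Cltrn, -9.19 for Kap, -5.91 for Pdzk1ip1 and -9.66 for Acsm2. The difference in log2 fold change, tibialis minus quadriceps, was -8.16 for Umod, -5.65 for Slc17a3, -6.92 for Slc12a1, -7.37 for Mep1a, -7.79 for Cdh16, -7.46 for Slc34a1, -5.29 for Fut9, -6.77 for Ugt2b38, -6.08 for Lrp2, -6.46 for Cltrn, -6.54 for Pdzk1ip1, -7.61 for Acsm2 and -3.79 for Hsd3b2. Summed kidney genes were at 148 to 189 CPM in wild-type tibialis, 29.5 to 41.9 CPM in wild-type gastrocnemius and 33.3 to 51.0 CPM in wild-type quadriceps.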

How the results depend on the processing

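The count of 66 called genes was 66 with median-of-ratios scaling, 60 in a fit of the 8 libraries, 71 in a fit of all 32, 53 with limma-trend, 80 with sample quality weights and 53 to 68 when 1 library was left out. It was 123 with no filter on low counts, where 32081 genes were tested, and 28 with the kidney genes removed. The numbers in the labels do not pair the samples; with the replicate block the count was 54, and no gene was called higher. With the number blocked within each state, the differences between muscles were past 0.05 for 41 (gastrocnemius) and 35 (quadriceps) genes, against 39 and 31. Called genes higher in healthy knock-in (3) numbered 11 with no filter, 10 with quality weights, 0 with the replicate block, and 0 to 8 when 1 library was left out. Called genes outside the sets treated apart (6), a count chosen after seeing the data, numbered 17 with no filter, 13 with quality weights and 3 to 12 when 1 library was left out. The lowest values came without wild-type replicate 1 or healthy replicate 3 and the highest without wild-type replicate 4. The share of genes bounded within -1 to 1 was 36.0% with no filter. The count in gastrocnemius (1) was 1 to 9 and in quadriceps (4) 2 to 13 when 1 library was left out, highest without wild-type replicate 4 in both. The lists other than kidney gave 4 called genes with no filter, 1 in the fit of 8 libraries, 2 with quality weights and 3 without healthy replicate 1, and 0 in the others. The causes were not tested. The count models were not run.

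Of 147 named genes, 31 values in 14 genes changed sign under some setting, and none of these genes was called there. When 1 library was left out, log2 fold changes ran from -0.14 to 2.35 for Mt2, from -0.27 to 0.018 for Neu3, from -0.044 to 0.15 for Nans, from -0.099 to 1.225 for S100a8, from -0.096 to 0.12 for Uap1, from -0.64 to 0.41 for Mmp9, from -0.17 to 0.024 for Slc35a1, from -0.088 to 0.00074 for Gne, from -0.11 to 0.083 for Nagk, from -0.13 to 0.00053 for Vcp, from -0.18 to 0.043 for Renbp, from -0.041 to 0.11 for Cmas, from -0.31 to 0.20 for Neu2 and from -0.081 to 0.052 for Gpi1. With sample quality weights, Nagk had 0.081, Renbp had 0.022 and Neu2 had -0.21. With all 32 libraries, Cmas had -0.0058. With limma-trend, Neu2 had -0.064. Of called named genes, Spink1 and Hsd3b2 lost their call in 2 settings and Fxyd2 in 3.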
